A study of Rattus norvegicus with 60 samples.

Results

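The enzymes and carriers of glycolysis, gluconeogenesis and fructose metabolism were followed in rat kidney, in a salt-sensitive strain with and without NADPH oxidase 4, in both the cortex and the outer medulla. The members were the rows of the deposited gene table that carry 1 of 31 gene names, from Hk1 to Tkfc. All 31 names were found, on 33 of the 32545 rows of the table, since G6pc and Pkm are each the name of a pair of rows. The series compared NOX4 knockout derivatives of the Dahl salt-sensitive (SS) rat with the wild-type SS rat, so both strains share the SS background and differ, per the series text, in the NOX4 deletion. Tissue came from rats under control conditions, labelled LS, and from rats fed 4.0% NaCl for 7 days, labelled HS7, or for 21 days, labelled HS21. With 2 strains, 3 diets and 2 tissues there were 12 groups of 5 libraries, or 60 libraries. The labels give no age, sex or breeding scheme of the rats, no salt content of the LS diet and no strandedness of the poly(A) libraries. They do not say that the libraries of a group came from separate animals, so the p-values measure the spread between these libraries, which may be technical.

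Library totals ran from 11490491 to 29560916 counts. Nox4 itself stood at 16.5 to 23.3 RPKM in NOX4 cortex, against 75.3 to 161 RPKM in SS cortex, where RPKM is the read count scaled by gene length and by TMM-adjusted library size. In outer medulla Nox4 stood at 0.437 to 3.62 RPKM in NOX4 libraries, against 1.45 to 26.8 RPKM in SS libraries. Every SS library has a lower number in its library name than every NOX4 library, so strain and library order cannot be told apart. Within SS the numbers also rise from LS to HS7 to HS21, so diet and library order cannot be told apart there. In 11 libraries, all of them SS at LS or HS7, no count was found for at least 10 genes whose median in that tissue was 2 to 5 CPM (counts scaled to library size); these are called low-complexity libraries here. Replicates 3 and 4 of the NOX4 HS7 group stood apart from the other 3 in both tissues, with Eno1 at 509.9 and 568.2 RPKM in cortex against 1073 to 1123 RPKM in the other 3 libraries of that group. Their cortex library names are C_62 and C_63, while the others of that group are C_41, C_43 and C_49.

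Glycolysis splits glucose to pyruvate and lactate through a chain of cytosolic enzymes, and gluconeogenesis runs the reversible steps backwards with its own enzymes at the irreversible ones. In the kidney gluconeogenesis belongs to the proximal tubule, which lies in the cortex and, as its last segment (segment 3), in the outer stripe of the outer medulla, while thick ascending limbs and collecting ducts of the outer medulla are known to use glycolysis. Fructose is taken up and metabolised by the same proximal cells through ketohexokinase, and the polyol enzymes Akr1b1 and Sord turn glucose into sorbitol and sorbitol into fructose.

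All 31 members passed the filter on low counts in each tissue. Of the rows sharing a name, the row at chromosome 10:89285855-89296213 (ENSRNOG00000051171, plus strand) was taken as G6pc. The other row named G6pc lies at 10:89236256-89244041, and held 17.4 ± 3.24 RPKM in outer medulla and 20.3 ± 1.78 RPKM in cortex (SD, n = 30 each). In the RefSeq gene table of GRCr8 the gene next to Aoc3 and Becn1 there is Psme3, so that row is not counted as G6pc. The other row named Pkm lies at 20:18058245-18060661, held 15.5 ± 8.72 RPKM in outer medulla and 12.4 ± 6.82 RPKM in cortex, and is not counted either. Coordinates are as deposited, with chromosome names as in Rnor_6.0, since the build is not given in the sources used here. Gapdh, Pkm, Tpi1, Aldoa, Eno1, Pgk1, Pgam1 and Ldha have near-identical copies or pseudogenes in rodents, so their levels are uncertain to the extent that reads were split or dropped. The low level of Tpi1, a median of 6.46 RPKM in outer medulla and 8.29 RPKM in cortex for an enzyme every cell uses, is given with that limit.

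The tissues differed most in which end of the pathway they expressed. The glucose carrier Slc2a1, the hexokinase Hk1, the phosphofructokinase Pfkp and the pyruvate kinase Pkm were higher in outer medulla. The gluconeogenic genes Pck1, G6pc, Fbp1 and Fbp2 were lower there than in cortex. Over the 6 groups of strain and diet, 26 of 31 members differed between outer medulla and cortex, 10 higher and 16 lower in outer medulla, by edgeR's quasi-likelihood test with Benjamini-Hochberg adjustment over all genes at an adjusted p under 0.05. The same test called 71.6% of all genes. All 11 markers of proximal tubule segments 1 and 2 and all 6 podocyte markers were lower in outer medulla, and 6 of 7 thick ascending limb markers were higher. Tissues of this kind are mixtures, so more cells of a type and more RNA per cell cannot be told apart in any value given here.

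**Figure D1:**
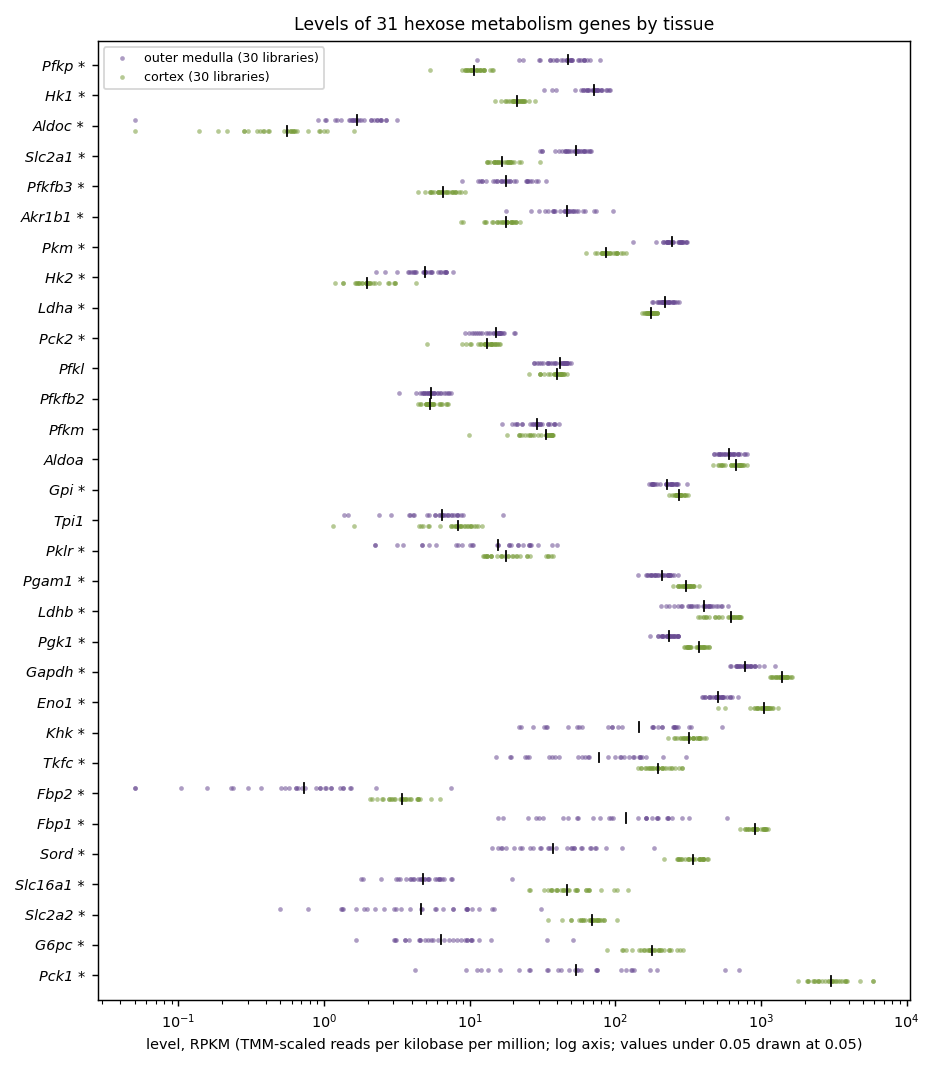
Level of each of the 31 members in every library (RPKM, log axis, values under 0.05 drawn at 0.05), with outer medulla above cortex for each gene, black ticks for the median of 30 libraries and an asterisk where the tissues differed at an adjusted p under 0.05. Members run by log2 fold change, with Pfkp and Hk1 at one end and Pck1 and G6pc at the other.

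Among glucose and lactate carriers the tissues traded one glucose transporter for the other. Slc2a1 (GLUT1), a transporter of cells that burn glucose, had a median of 53.4 RPKM and a range of 30.6 to 67.8 RPKM in outer medulla, against a median of 16.7 RPKM and a range of 13.1 to 30.5 RPKM in cortex. The lowest outer medulla library stood just above the highest cortex library, and the log2 fold change was 1.56 ± 0.07 (SE), adjusted p = 7.58e-28. Slc2a2 (GLUT2), which lets glucose leave proximal tubule cells, had a median of 4.67 RPKM and a range of 0.495 to 30.9 RPKM in outer medulla, against a median of 69.1 RPKM and a range of 34.5 to 102 RPKM in cortex. These ranges did not overlap, at a log2 fold change of -3.59 ± 0.22 (SE), adjusted p = 6.12e-21. Slc2a1 made up 88.9 ± 10.2% of the RPKM of both carriers in outer medulla and 21.1 ± 6.86% in cortex (SD, n = 30 libraries each). Slc16a1, a monocarboxylate carrier, had a median of 4.78 RPKM and a range of 1.8 to 19.5 RPKM in outer medulla, against a median of 46.6 RPKM and a range of 25.4 to 122 RPKM in cortex, a log2 fold change of -3.34 ± 0.17 (SE), adjusted p = 4.33e-24.

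The hexokinases Hk1 and Hk2 and 1 of the 3 phosphofructokinases, Pfkp, were higher in outer medulla. Hk1, the hexokinase that most cells use to trap glucose, had a median of 71 RPKM and a range of 32.2 to 92.5 RPKM in outer medulla, against a median of 21.1 RPKM and a range of 14.8 to 28.1 RPKM in cortex, with no overlap and a log2 fold change of 1.70 ± 0.07 (SE), adjusted p = 6.88e-29. Hk2 was far lower in level, with a median of 4.95 RPKM in outer medulla and 1.97 RPKM in cortex, and Hk1 gave 93% of the RPKM of both genes in outer medulla and 91% in cortex. The 3 phosphofructokinase genes encode the committed step of glycolysis and were used in different proportions. Pfkp, the platelet-type isozyme, gave 39.4 ± 7.58% of their summed RPKM in outer medulla and 13.8 ± 2.27% in cortex, with a log2 fold change of 2.06 ± 0.09 (SE), adjusted p = 3.15e-26. Pfkl and Pfkm, the liver and muscle types, had log2 fold changes of 0.02 (adjusted p = 0.645) and -0.04 (adjusted p = 0.657). Pfkfb3, which makes the fructose 2,6-bisphosphate that activates phosphofructokinase, had a log2 fold change of 1.49 ± 0.09 (SE), adjusted p = 7.36e-22, while its isozyme Pfkfb2 had 0.01 (adjusted p = 0.909).

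The middle of the pathway, which glycolysis and gluconeogenesis share, leaned the other way. Gapdh had a median of 777 RPKM and a range of 616 to 1260 RPKM in outer medulla, against a median of 1400 RPKM and a range of 1150 to 1640 RPKM in cortex, a log2 fold change of -0.81 ± 0.04 (SE), adjusted p = 3.86e-23. Eno1 (enolase) had a log2 fold change of -1.0 ± 0.06 (SE), adjusted p = 7.2e-22, Pgk1 of -0.64 ± 0.04, Pgam1 of -0.59 ± 0.04 and Gpi of -0.31 ± 0.04, all lower in outer medulla at adjusted p values of 1.79e-10 or less. Aldoa, by far the larger of the 2 aldolase members at 603 RPKM (median) in outer medulla and 669 RPKM in cortex, had a log2 fold change of -0.09 ± 0.05 that missed the threshold (adjusted p = 0.0715). At the end of glycolysis Pkm, the pyruvate kinase of most tissues, had a median of 247 RPKM and a range of 133 to 311 RPKM in outer medulla, against a median of 86.5 RPKM and a range of 63.1 to 119 RPKM in cortex, with no overlap and a log2 fold change of 1.48 ± 0.06 (SE), adjusted p = 1.65e-29. Pklr, the liver and red cell pyruvate kinase, had a median of 15.5 RPKM and a range of 2.24 to 39.7 RPKM in outer medulla, against a median of 17.8 RPKM and a range of 12.3 to 37.2 RPKM in cortex, overlapping widely, with a log2 fold change of -0.50 ± 0.17 (SE), adjusted p = 0.00751. Lactate dehydrogenase shifted too: Ldha, the muscle-type subunit, was higher in outer medulla (0.34 ± 0.04 (SE), adjusted p = 1.59e-12) and Ldhb, the heart-type subunit, was lower (-0.60 ± 0.07 (SE), adjusted p = 4.41e-11). Ldha gave 37.6 ± 6.51% of the RPKM of both subunits in outer medulla and 23.8 ± 4.58% in cortex.

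Gluconeogenesis showed the largest differences of the 31 members. Pck1, the cytosolic phosphoenolpyruvate carboxykinase that opens gluconeogenesis in the proximal tubule, had a median of 54 RPKM and a range of 4.22 to 706 RPKM in outer medulla, against a median of 3040 RPKM and a range of 1790 to 5890 RPKM in cortex. No outer medulla library reached the lowest cortex library, and the log2 fold change was -5.35 ± 0.30 (SE), adjusted p = 1.31e-22. G6pc, the glucose-6-phosphatase catalytic subunit that releases free glucose, had a median of 6.36 RPKM and a range of 1.67 to 51.5 RPKM in outer medulla, against a median of 179 RPKM and a range of 87.1 to 291 RPKM in cortex, again without overlap (-4.50 ± 0.21 (SE), adjusted p = 3.38e-26). Fbp1 (fructose-1,6-bisphosphatase) had a median of 119 RPKM and a range of 15.6 to 586 RPKM in outer medulla, against a median of 906 RPKM and a range of 724 to 1110 RPKM in cortex, without overlap (-2.92 ± 0.20 (SE), adjusted p = 1.08e-18). Within outer medulla all 3 spanned more than an order of magnitude from the lowest to the highest library. Pck2, the mitochondrial isozyme of Pck1, was nearly level between the tissues, with a log2 fold change of 0.17 ± 0.05 (SE), adjusted p = 0.00332. It gave on average 26.1% of the RPKM of both isozymes in outer medulla against 0.435% in cortex. That share varied widely between outer medulla libraries, where Pck2 ran from 9.3 to 20.4 RPKM and Pck1 from 4.22 to 706 RPKM.

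Of the fructose and polyol genes 3 were lower and 1 was higher in outer medulla. Khk (ketohexokinase), which phosphorylates fructose, had a median of 144 RPKM and a range of 21.7 to 543 RPKM in outer medulla, against a median of 319 RPKM and a range of 231 to 417 RPKM in cortex (-1.27 ± 0.18 (SE), adjusted p = 1.06e-08). Tkfc, the triokinase that phosphorylates the glyceraldehyde made from fructose, followed the same order (-1.29 ± 0.17 (SE), adjusted p = 8.92e-10), and so did Sord, the sorbitol dehydrogenase (-2.94 ± 0.15 (SE), adjusted p = 8.88e-24). Akr1b1 (aldose reductase), which makes sorbitol, an osmolyte of the medulla, was higher in outer medulla, with a median of 46.6 RPKM and a range of 17.8 to 95.9 RPKM there, against a median of 17.7 RPKM and a range of 8.76 to 22.2 RPKM in cortex (1.48 ± 0.09 (SE), adjusted p = 1.5e-21).

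The promoters of Pck1, the member with the largest difference towards cortex, and of Ldha and Slc2a1, both higher in outer medulla, are shown because they hold a motif searched for. They were chosen for that after the search and not for the size of their difference, and the windows of Pfkp and Pkm, with differences larger than that of Ldha, held neither motif. The sequences are the 250 bases before the RefSeq start on GRCr8, all on the plus strand: Pck1 at chr3:182348322-182348571, Ldha at chr1:106507842-106508091 and Slc2a1 at chr5:138002272-138002521. Capitals mark TGACGT (part of the cyclic AMP response element) in Pck1 and Ldha and ACGTG (the core of the hypoxia response element) in Ldha and Slc2a1, on either strand.
Pck1: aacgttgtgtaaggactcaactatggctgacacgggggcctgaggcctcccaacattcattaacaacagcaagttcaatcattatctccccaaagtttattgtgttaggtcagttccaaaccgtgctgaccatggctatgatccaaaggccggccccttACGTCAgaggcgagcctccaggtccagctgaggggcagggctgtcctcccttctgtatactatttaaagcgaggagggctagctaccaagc
Ldha: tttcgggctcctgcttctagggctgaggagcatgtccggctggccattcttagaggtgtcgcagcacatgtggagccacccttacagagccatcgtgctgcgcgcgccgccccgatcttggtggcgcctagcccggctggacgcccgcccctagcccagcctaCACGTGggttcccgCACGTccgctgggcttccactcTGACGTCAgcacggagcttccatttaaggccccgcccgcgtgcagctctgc
Slc2a1: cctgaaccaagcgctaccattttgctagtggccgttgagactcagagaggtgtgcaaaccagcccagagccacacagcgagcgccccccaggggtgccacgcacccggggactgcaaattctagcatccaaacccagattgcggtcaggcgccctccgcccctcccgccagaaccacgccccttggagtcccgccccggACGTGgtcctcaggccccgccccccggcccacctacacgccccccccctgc
In Pck1 the TGACGT match lay 91 to 86 bases before the start, on the minus strand. Ldha held 3 ACGTG matches, 2 of which overlap on opposite strands in CACGTG, and 2 TGACGT matches that overlap on opposite strands from 51 to 44 bases before the start. Slc2a1 held 1 ACGTG match at 51 to 47 bases before the start. Of the 28 members with a RefSeq promoter, ACGTG was in 5 of 9 that were higher in outer medulla, 4 of 14 that were lower and 2 of 5 that were not called, and in 16.6% of all 33469 promoters of this length. TGACGT was in 1 of 9, 1 of 14 and 1 of 5 in the same order and in 6.95% of all promoters. A member was counted if any of its promoters matched, while the percentages are of single promoters, so the units are unlike. ACGTG was found in Hk1 only in promoter 2 of 2 and in Aldoa only in promoter 3 of 3. A match describes these letters only.

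In outer medulla the knockout derivatives carried more RNA for fructose and glucose-producing enzymes than SS rats. Averaged over the 3 diets, Khk, Tkfc, Fbp1, Pklr, G6pc and Sord were between 1.75 and 2.56 times as high in NOX4 as in SS libraries, while Hk2, Pfkfb3 and Akr1b1 were lower. That contrast called 15 of 31 members (48.4%), 12 higher and 3 lower in NOX4, beside 30.4% of all genes. The median log2 fold change was 0.20 over the members and -0.02 over all genes tested. At LS 7 members were called and all 7 were higher in NOX4, beside 14.8% of all genes. HS7 had 1 call beside 9.61% of all genes, and HS21 had 0 calls beside 1.63%. At HS21 10 members were under an unadjusted p of 0.05 and DESeq2 made 0 calls, with the shares of all genes by those measures not given here.

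**Figure D2:**
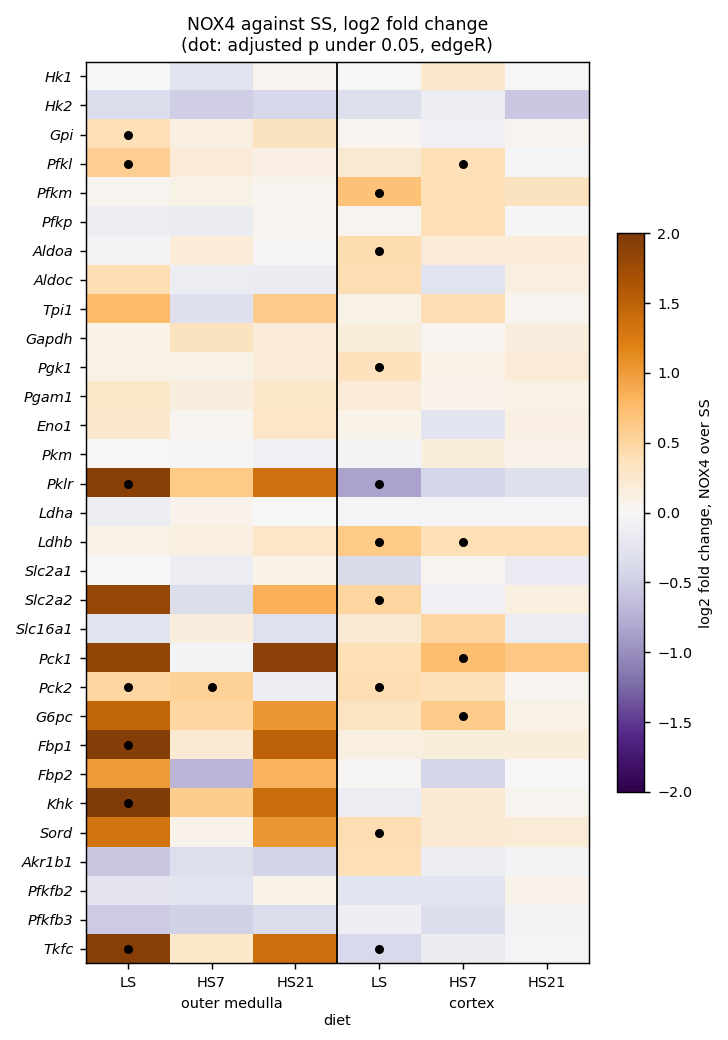
Log2 fold change of NOX4 over SS for each of the 31 members at LS, HS7 and HS21, outer medulla columns left and cortex columns right, with colour limited to ±2 and dots at an adjusted p under 0.05. The outer medulla LS column has 7 dots, all on higher members, and the cortex LS column has 9, 7 on higher and 2 on lower members.

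Khk (6:26810579-26820959, minus strand, ENSRNOG00000008047) had 94.4, 210.2, 321, 211 and 94.8 RPKM in the 5 NOX4 outer medulla libraries at LS, against 59.2, 54.4, 22.4, 32.6 and 47.3 RPKM in the 5 SS libraries. Every NOX4 library was above every SS library. The means were 186 ± 95.1 RPKM in NOX4 and 43.2 ± 15.3 RPKM in SS (SD, n = 5 each), a log2 fold change of 2.08 ± 0.60 (SE), adjusted p = 0.0217. After 7 days of salt Khk had 181, 269, 333, 260.2 and 252 RPKM in NOX4, against 21.7, 33.5, 542.5, 178 and 88.6 RPKM in SS, where replicate 3 alone lay above every NOX4 library. After 21 days it had 247, 197, 254, 256 and 111 RPKM in NOX4, against 56.4, 27.15, 34.1, 105 and 181 RPKM in SS. The groups overlapped at HS21 because the highest SS library lay above the lowest NOX4 library, and the log2 fold change was 1.40 ± 0.59 (SE), adjusted p = 0.221. The average over diets was 1.36 ± 0.34 (SE), adjusted p = 0.00377.

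Tkfc (1:226644200-226657408, minus strand) moved with Khk. Its outer medulla levels at LS were 58.8, 132, 213, 134 and 62.45 RPKM in NOX4, against 41.15, 34.9, 15.1, 24.7 and 38.6 RPKM in SS, without overlap, at a log2 fold change of 1.93 ± 0.55 (SE), adjusted p = 0.0203. Pklr (2:188449210-188459592, plus strand) had 10.6, 25.6, 37, 26.3 and 15.5 RPKM in NOX4, against 8.26, 8.06, 3.18, 4.72 and 5.84 RPKM in SS, also without overlap (1.91 ± 0.54 (SE), adjusted p = 0.0201). Fbp1 (17:396180-417480, minus strand) had 70.25, 161, 287, 194.5 and 90.7 RPKM in NOX4, against 54.6, 47.3, 15.6, 31.7 and 55.7 RPKM in SS. These too did not overlap, and the log2 fold change was 1.95 ± 0.65 (SE), adjusted p = 0.0425. For all 3 the highest NOX4 library was replicate 3 and the lowest SS library was replicate 3. Averaged over diets, the log2 fold changes were 1.19 ± 0.31 (SE), adjusted p = 0.00519 for Tkfc, 1.29 ± 0.31 (SE), adjusted p = 0.00252 for Pklr and 1.21 ± 0.37 (SE), adjusted p = 0.0135 for Fbp1.

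Pck1 and G6pc, the genes that open and close gluconeogenesis, leaned the same way in outer medulla. Pck1 had 54.9, 55.5, 127, 119 and 74.9 RPKM in NOX4 at LS, against 21.9, 34.6, 9.41, 25.6 and 25.9 RPKM in SS. The groups did not overlap, yet 706 RPKM in SS replicate 3 and 569.5 RPKM in NOX4 replicate 2 at HS7 stood far from the rest, and the contrast averaged over diets missed the threshold (1.23 ± 0.48 (SE), adjusted p = 0.0508). G6pc had 7.25, 10.2, 9.52, 14.1 and 7.67 RPKM in NOX4 at LS, against 4.55, 3.13, 1.67, 3.01 and 4.9 RPKM in SS, and 10.3, 9.53, 10.3, 11.7 and 8.73 RPKM in NOX4 at HS21, against 5.16, 3.815, 3.605, 5.6 and 6.09 RPKM in SS. Neither diet showed overlap, and the average over diets was 1.00 ± 0.33 (SE), adjusted p = 0.0224. Without NOX4 HS7 replicate 2 it was 0.58 (adjusted p = 0.0869). Sord had a log2 fold change of 0.81 ± 0.27 (SE), adjusted p = 0.0227 averaged over diets.

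A second group of members differed by less and with less spread. Pfkl (20:11393877-11415882, plus strand) had 45.4, 45.7, 49.9, 45.8 and 46.7 RPKM in NOX4 outer medulla at LS, against 29.2, 36.65, 30.8, 29.95 and 27.7 RPKM in SS, with no overlap and a log2 fold change of 0.56 ± 0.11 (SE), adjusted p = 0.00258. Pck2 (15:34216833-34224193, plus strand) had 15.7, 15.85, 14.4, 16.1 and 17.1 RPKM in NOX4, against 11.8, 9.295, 10.7, 9.905 and 13 RPKM in SS, with no overlap (0.49 ± 0.10 (SE), adjusted p = 0.00283). Pck2 was also the 1 member called at HS7, with 15.3, 15.8, 20.1, 20.4 and 14.8 RPKM in NOX4, against 11, 10.3, 12.2, 11.4 and 13.7 RPKM in SS, again with no overlap (0.54 ± 0.10 (SE), adjusted p = 0.00301). At HS21 it had 15.2 ± 1.08 RPKM in NOX4 and 16.4 ± 0.48 RPKM in SS (SD, n = 5 each). Gpi (glucose-6-phosphate isomerase, 1:90063411-90091287) had 245, 269, 255, 260.1 and 236 RPKM in NOX4 at LS, against 184, 182, 194, 202 and 181 RPKM in SS (0.39 ± 0.11 (SE), adjusted p = 0.0194). At HS21 it had 243, 241.5, 227, 244 and 240 RPKM in NOX4, against 178, 178, 175, 187 and 225 RPKM in SS, still without overlap but past no threshold (0.33 ± 0.11 (SE), adjusted p = 0.116). Averaged over diets the log2 fold changes were 0.30 ± 0.06 (SE), adjusted p = 0.000489 for Pck2, 0.28 ± 0.06 (SE), adjusted p = 0.00142 for Gpi and 0.28 ± 0.07 (SE), adjusted p = 0.00218 for Pfkl, with Pgam1, Eno1 and Gapdh at 0.23, 0.20 and 0.20.

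**Figure D3:**
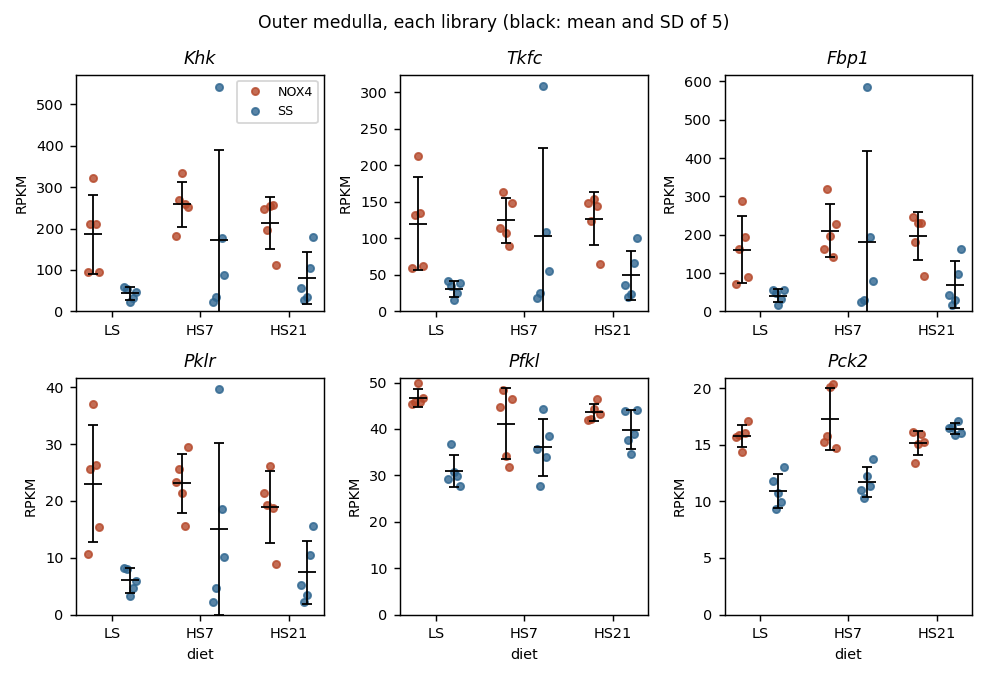
Outer medulla level (RPKM) of selected members in each library by diet, NOX4 left of SS, with bars for the mean and SD of 5 libraries. SS HS7 replicate 3 stands above the other SS libraries for Khk, Tkfc, Fbp1 and Pklr, and the SD bar of that group is cut at 0 where it would run below the axis.

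The 3 members that were lower in NOX4 outer medulla act in glucose trapping, in the control of phosphofructokinase and in the polyol branch. Hk2 had 4.1, 4.8, 5.25, 5.05 and 4.865 RPKM at HS21 in NOX4, against 6.92, 6.67, 6.33, 6.25 and 5.39 RPKM in SS. No library of one strain fell within the range of the other there, whereas at LS and HS7 the groups overlapped. Averaged over diets, the log2 fold changes were -0.42 ± 0.13 (SE), adjusted p = 0.0159 for Hk2, -0.44 ± 0.15 (SE), adjusted p = 0.0225 for Pfkfb3 and -0.44 ± 0.14 (SE), adjusted p = 0.0227 for Akr1b1. The main hexokinase Hk1 and the main glucose carrier Slc2a1 had log2 fold changes of -0.08 (adjusted p = 0.631) and -0.01 (adjusted p = 0.936).

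Markers of proximal tubule segment 3 moved in the same direction as most of these genes. Of 9 markers of segment 3, 7 were higher and 0 lower in NOX4 outer medulla averaged over diets, beside 30.4% of all genes called. Of 11 markers of segments 1 and 2, 3 were higher and 0 lower, near that share. The summed RPKM of the segment 3 markers ran from 1410 to 4280 (median 2880) in NOX4 at LS, against 778 to 1470 (median 1290) in SS at LS. At HS21 it ran from 1830 to 3120 in NOX4, against 667 to 2310 in SS, and no marker of either list was at 0 throughout a group. All 6 fibroblast and matrix markers, 4 of 7 injured tubule markers and 4 of 6 smooth muscle markers were lower in NOX4 outer medulla, and their part in the result was not tested. At LS the segment 3 marker score ran from 5.77 to 7.2 in NOX4 and from 3.96 to 5.75 in SS. The strains did not overlap in it, so strain and score cannot be told apart at that diet. With the segment 3 marker score as a covariate, a fit chosen after the data were seen, the log2 fold changes at LS were 0.05 for Khk, 0.06 for Tkfc, 0.07 for Pklr and -0.22 for Fbp1, none of them called. Pck2 kept its call in that fit at LS, at 0.50 (adjusted p = 0.0326), and averaged over diets it was the 1 member still called.

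Within each strain several of these genes followed a marker score from library to library. Over the 15 NOX4 outer medulla libraries log2 Khk correlated with the segment 3 score at r = 0.903 (permutation p = 3e-05, adjusted p = 0.000196) and rho = 0.739 (permutation p = 0.00242), and at r = 0.749 without the 2 libraries farthest from the median score. Over the 15 SS libraries r was 0.936 (permutation p = 1e-05, the smallest that 100000 permutations can give) and rho 0.975, and r was 0.979 without the 2 farthest. Fbp1 gave r = 0.916 in NOX4 and 0.921 in SS, and Pck1 followed the score of segments 1 and 2 at r = 0.966 in NOX4 and 0.939 in SS. With the other of the 2 scores, r in NOX4 was 0.432 for Khk (permutation p = 0.11), 0.752 for Fbp1 and 0.467 for Pck1 (permutation p = 0.085). In SS it was 0.917, 0.933 and 0.788 in the same order. For Pck2 and the segment 3 score r was -0.142 in NOX4 (permutation p = 0.622) and 0.32 in SS (permutation p = 0.243). These relations belong to a family of 124, each runs over the 3 diets of 1 strain, and gene and score come from the same libraries.

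**Figure D4:**
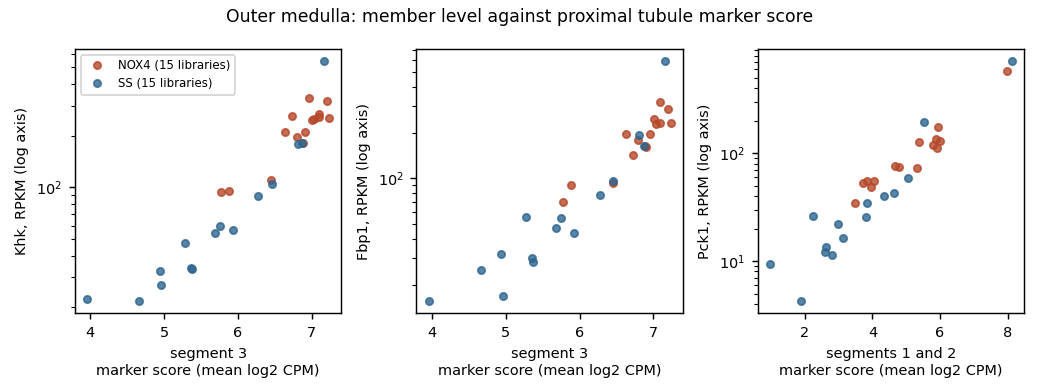
Khk and Fbp1 against the segment 3 marker score and Pck1 against the score of segments 1 and 2 (mean log2 CPM) in outer medulla, one point per library, 15 NOX4 and 15 SS. Within a strain r lay between 0.903 and 0.966. Whether the strains differ in Pck1 at a like score of segments 1 and 2 was not tested. NOX4 LS replicate 1 had 54.9 RPKM of Pck1 at a score of 3.83, against 34.6 RPKM at 3.85 in SS LS replicate 2. The order was the other way for SS HS7 replicate 4, with 192 RPKM at 5.51, against 127 RPKM at 5.38 in NOX4 LS replicate 3. Each gene is drawn against the score with which its r in NOX4 was higher.

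Single libraries and diets set part of the outer medulla counts. At LS the calls for Khk, Tkfc and Pklr were lost without NOX4 replicate 3 or without SS replicate 3 (adjusted p 0.0523 to 0.0667), taking the count to 3 or 4, and Fbp1 was called in 2 of the 10 fits that leave out 1 library. At HS7 9 members were called without SS replicate 3, and at HS21 8 were called, 7 higher and 1 lower, without the low-complexity libraries. The fits that leave out 1 library called 367 to 3409 of all genes at HS7, against 1519 in the main fit. The share of all genes in the HS21 fit without low-complexity libraries is not given here. The authors' deposited table called 13 members at LS, all higher in NOX4, 0 at HS7 and 15 at HS21, 13 higher and 2 lower. In the authors' deposited table these contrasts called 17.1%, 1.1% and 25.6% of all genes.

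In cortex the calls between strains took in further members of glycolysis. NOX4 cortex had more Ldhb, Aldoa, Pfkm and Pgk1 of glycolysis and more Pck1 and Pck2 of gluconeogenesis, and less Pklr and Tkfc, than SS cortex. Averaged over diets 15 of 31 members were called (48.4%), 12 higher and 3 lower in NOX4, beside 31.7% of all genes, with a median log2 fold change of 0.12 over the members and 0.00 over all genes. The calls by diet were 9 at LS (7 higher, 2 lower) beside 22% of all genes, 4 at HS7 (all higher) beside 17.4%, and 0 at HS21 beside 1%, where 4 members were under an unadjusted p of 0.05 and DESeq2 called 2. The share called at LS was 29.0%, and at HS7 it was 12.9%, below that of all genes. Shares of all genes by unadjusted p or by DESeq2 are not given here.

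Ldhb (4:176701983-176720012, minus strand, ENSRNOG00000013000) had 596.5, 689, 622, 689 and 640.5 RPKM in NOX4 cortex at LS, against 404, 400, 367, 422 and 505 RPKM in SS. The groups did not overlap at LS, and the log2 fold change was 0.62 ± 0.12 (SE), adjusted p = 0.00056. At HS21 it had 709, 665, 653, 629 and 710.4 RPKM in NOX4, against 481, 442, 488, 540.2 and 600 RPKM in SS, again without overlap, with the log2 fold change short of the threshold (0.39 ± 0.12 (SE), adjusted p = 0.11). At HS7 SS replicate 3 reached the NOX4 range, with 722, 727, 701, 712 and 662 RPKM in NOX4, against 381, 418, 724, 643 and 513 RPKM in SS (0.40 ± 0.12 (SE), adjusted p = 0.0202). That call was lost without SS HS7 replicate 1 (0.30, adjusted p = 0.0679) and without replicate 2 (0.32, adjusted p = 0.0757). Ldhb gave 78.8 ± 1.75% of the RPKM of both lactate dehydrogenase subunits in NOX4 at LS and 70.2 ± 3.35% in SS. Over the diets the log2 fold change was 0.47 ± 0.07 (SE), adjusted p = 1.01e-05, and Ldha was at -0.04 (adjusted p = 0.502).

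Other glycolytic members differed at LS as well. Pfkm (7:139685573-139722132, plus strand) had 34.9, 36.7, 36.3, 36.5 and 35.7 RPKM in NOX4 cortex, against 26, 18, 21.9, 22.2 and 22.9 RPKM in SS, with all 5 NOX4 libraries above all 5 SS libraries (0.70 ± 0.18 (SE), adjusted p = 0.00544). Its share of the 3 phosphofructokinases was 40.9 ± 0.753% in NOX4 and 32.8 ± 3.83% in SS. Aldoa (1:198228387-198233588, minus strand) had 714, 800.1, 749, 745 and 711 RPKM in NOX4, against 518.5, 533, 532, 621 and 539 RPKM in SS, without overlap (0.44 ± 0.09 (SE), adjusted p = 0.0015). Pgk1 (phosphoglycerate kinase) had 379, 443, 390.4, 397.5 and 407 RPKM in NOX4, against 317, 320, 294, 308.5 and 333 RPKM in SS, without overlap (0.36 ± 0.09 (SE), adjusted p = 0.00602). Slc2a2 had 67.5, 71.85, 61.8, 69.6 and 67.95 RPKM in NOX4, against 43.4, 50, 34.5, 49.3 and 60 RPKM in SS, and also did not overlap (0.51 ± 0.13 (SE), adjusted p = 0.00439). Sord was higher too (0.41 ± 0.12 (SE), adjusted p = 0.0178), a call that was lost without SS replicate 3 (0.32, adjusted p = 0.0760).

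The 2 members that were lower in NOX4 cortex at LS were both higher in NOX4 outer medulla. Pklr had 22.1, 21.1, 13.1, 18.5 and 17.5 RPKM in NOX4 cortex, against 34.25, 33.5, 37.25, 36 and 24.7 RPKM in SS, with every SS library above every NOX4 library (-0.85 ± 0.22 (SE), adjusted p = 0.0056). It gave 17.2 ± 4.12% of the RPKM of Pkm and Pklr in NOX4 and 26.2 ± 3.3% in SS. Tkfc had 209, 209, 167, 209 and 196 RPKM in NOX4, against 243, 286, 257, 274 and 246 RPKM in SS, without overlap (-0.40 ± 0.13 (SE), adjusted p = 0.0258). Segment 3 markers were ordered the same way in cortex, with 4 of 9 lower and 1 higher in NOX4 at LS, beside 22% of all genes called. Their summed RPKM was 1000 to 1610 in NOX4, against 2190 to 3740 in SS. Of the 11 markers of segments 1 and 2, 7 were higher and 0 lower. Averaged over diets, all 7 intercalated cell and all 6 podocyte markers were higher in NOX4 cortex. Of 6 fibroblast and matrix markers 5 were lower, beside 31.7% of all genes called in that contrast. The part of these markers in the result was not tested. With the segment 3 score as a covariate 0 members were called at LS, Pklr was at -0.03 and Tkfc at 0.07. That score ran from 5.21 to 5.85 in NOX4 cortex at LS and from 6.53 to 6.9 in SS, so strain and score cannot be told apart there.

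Pck1 (3:171213936-171219871, plus strand, ENSRNOG00000028616) was higher on average in NOX4 cortex at every diet, past the threshold at HS7. At LS it had 3088, 3850, 2890, 3369 and 3507 RPKM in NOX4, against 2477, 2736, 2328, 2464 and 2644 RPKM in SS. At HS7 it had 3758, 3579, 5887, 5853 and 3882 RPKM in NOX4, against 2107, 2366, 3272, 2930 and 3059 RPKM in SS, and at HS21 3771, 3112, 2518, 3235 and 4825 RPKM in NOX4, against 2077, 1788, 2288, 2094 and 3012 RPKM in SS. NOX4 libraries lay above all SS libraries at LS and HS7, and 1 NOX4 library fell within the SS range at HS21. The log2 fold changes were 0.40 ± 0.16 at LS (adjusted p = 0.0785), 0.75 ± 0.16 at HS7 (adjusted p = 0.00268) and 0.63 ± 0.16 at HS21 (adjusted p = 0.0552), and 0.59 ± 0.09 (SE), adjusted p = 2.93e-05 over the diets. NOX4 HS7 replicates 3 and 4 were the highest of all. At HS7 Pfkl (0.38 ± 0.09 (SE), adjusted p = 0.00425) and G6pc (0.61 ± 0.21 (SE), adjusted p = 0.0473) were also called. Without NOX4 HS7 replicates 3 and 4 none of the 4 members called at HS7 passed the threshold. Pck1 and Pfkl averaged over diets remained called under each of the 7 other settings tried.

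**Figure D5:**
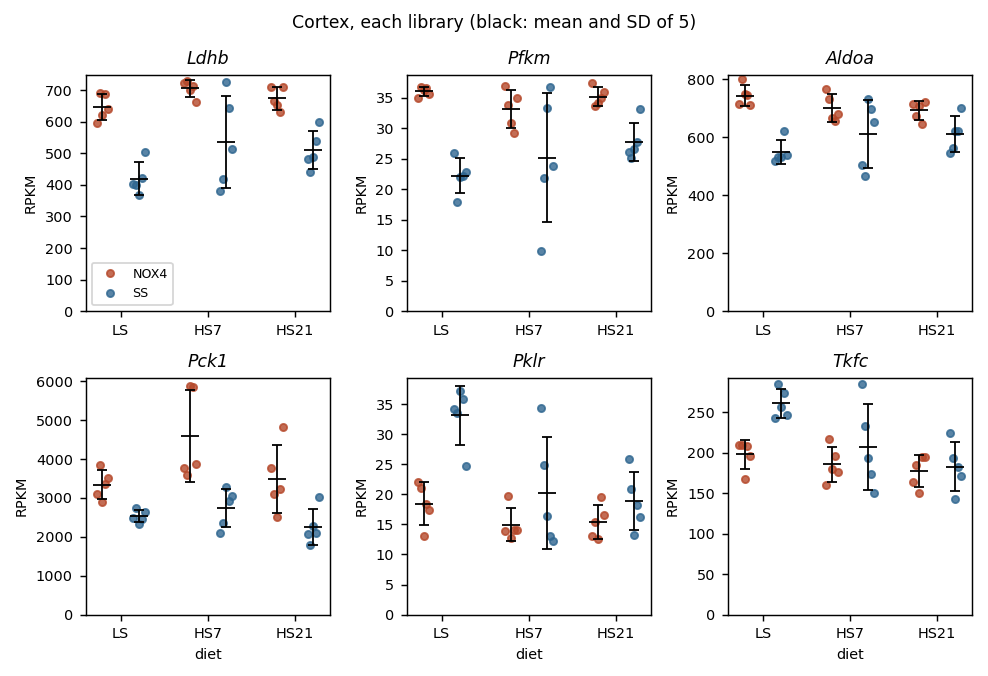
Cortex level (RPKM) of selected members in each library by diet, NOX4 left of SS, with bars for the mean and SD of 5 libraries. At LS the strains do not overlap for Ldhb, Pfkm, Aldoa, Pck1, Pklr or Tkfc, with the last 2 lower in NOX4.

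Low-complexity libraries bear on the cortex count at LS, where replicates 2, 3 and 4 of SS are of that kind. Without the low-complexity libraries 5 members were called at LS, 3 of them among the 9, with Ldhb, Pfkm and Aldoa still called and Pklr at -0.68 (adjusted p = 0.0734). At HS7 2 members were called without SS replicate 2 and 9 without SS replicate 3, and the average over diets had 9 calls without SS HS7 replicate 2 and 9 without SS HS21 replicate 2. The fits that leave out 1 library called 1582 to 3475 of all genes at HS7 and 4329 to 5272 averaged over diets. The authors' deposited table called 9 members at LS (7 higher, 2 lower), 3 at HS7 and 6 at HS21, where it called 16.6%, 7.1% and 9.38% of all genes.

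The strain difference was called as unlike between the tissues for 4 members (12.9%), near the 11% of all genes. That count is therefore not read as a result about the members. All 4 had a higher NOX4 over SS ratio in outer medulla than in cortex. The difference between the tissues in the strain log2 fold change was 1.83 ± 0.34 (SE), adjusted p = 0.000166 for Pklr, 1.40 ± 0.33 (SE), adjusted p = 0.00271 for Tkfc, 1.32 ± 0.35 (SE), adjusted p = 0.0094 for Khk and 0.30 ± 0.07 (SE), adjusted p = 0.00583 for Gpi. Fbp1 was at 1.07 ± 0.38 (SE), adjusted p = 0.0588. Of 9 segment 3 markers 7 gave the same interaction, all 7 in the same direction. The calls for Khk and Gpi were lost without replicate 2 of every group (adjusted p = 0.0646 and 0.0536), Khk also without replicate 4 (0.0581) and Gpi without replicate 1 (0.0807). Without the low-complexity libraries 14 members were called, 10 higher and 4 lower. The share of all genes called in that fit is not given here.

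The members called after salt were all in SS. In SS cortex 21 days of salt raised 4 members and lowered 2 relative to LS, 19.4% of the members, beside 16.5% of all genes. Tkfc fell to 225, 193, 143, 183 and 172 RPKM at HS21, against 243, 286, 257, 274 and 246 RPKM at LS, without overlap (-0.52 ± 0.13 (SE), adjusted p = 0.00743). Pklr had 25.9, 20.9, 13.2, 18.2 and 16.3 RPKM at HS21, against 34.25, 33.5, 37.25, 36 and 24.7 RPKM at LS, where the highest HS21 library lay above the lowest LS library (-0.82 ± 0.22 (SE), adjusted p = 0.0104). Akr1b1 had 19.7, 18.1, 20.9, 21 and 17.9 RPKM at HS21, against 16.3, 8.945, 12.5, 8.76 and 17.7 RPKM at LS (0.60 ± 0.16 (SE), adjusted p = 0.00941), with every HS21 library above every LS library. Pck2, Slc2a2 and Pfkl rose by 0.53, 0.48 and 0.27 on the log2 scale. Without the low-complexity libraries, which include 3 of the 5 LS libraries, 3 members were called and Pck2 was the 1 shared with the 6, at 0.42 (adjusted p = 0.0460), while Akr1b1 was at 0.20. At HS7 Slc2a2 was the 1 call, beside 2.25% of all genes, with 56.2, 76.4, 102, 73.2 and 83.3 RPKM at HS7, against 43.4, 50, 34.5, 49.3 and 60 RPKM at LS (0.72 ± 0.13 (SE), adjusted p = 0.00628). It was not called without the low-complexity libraries, and 6 members were called without SS LS replicate 5 or without SS HS7 replicate 1. The fits of that contrast that leave out 1 library called 190 to 819 of all genes.

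In SS outer medulla Pck2 and Pfkl were called at HS21, beside 9.86% of all genes. Pck2 rose to 16.5, 16.5, 15.9, 17.1 and 16 RPKM at HS21, against 11.8, 9.295, 10.7, 9.905 and 13 RPKM at LS, without overlap (0.56 ± 0.10 (SE), adjusted p = 0.000922), and it was called in all 10 fits that leave out 1 library. Pfkl had 43.95, 37.7, 34.6, 39 and 44.1 RPKM at HS21, against 29.2, 36.65, 30.8, 29.95 and 27.7 RPKM at LS (0.35 ± 0.11 (SE), adjusted p = 0.0498), a call kept in 2 of those 10 fits. At HS7 0 members were called by edgeR, beside 2.37% of all genes. By other measures 14 were under an unadjusted p of 0.05 and 8 were called by DESeq2. The shares of all genes by those measures are not given here, so these counts are not read as a result about the members. The largest log2 fold changes there, 2.99 ± 0.88 for Pck1 and 2.58 ± 0.73 for Slc2a2, come from groups in which SS HS7 replicate 3 stood far above the rest. Without SS HS7 replicate 1 or without SS HS7 replicate 2, 7 members were called. The fits of that contrast that leave out 1 library called 70 to 1456 of all genes.

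In NOX4 no member was called after salt in either tissue, and neither was any gene (0%) by edgeR. In cortex 2 members were under an unadjusted p of 0.05 at HS7 and 0 at HS21, and in outer medulla 6 at HS7 and 0 at HS21. DESeq2 called 0 members in each of these 4 contrasts. Whether salt acted differently in the strains was tested at HS21 as an interaction, which called 0 members in cortex, beside 1.08% of all genes, and 0 in outer medulla, beside 0.0253%, with 3 and 2 members under an unadjusted p of 0.05. The smallest p among them was that of Pck2 in outer medulla, with an interaction of -0.62 ± 0.14 (SE), adjusted p = 0.099. DESeq2 called 0 members in cortex and 1 in outer medulla for this interaction. For all genes the shares by unadjusted p or by DESeq2 are not given here. Pck2 stood at 15.8 ± 0.969 RPKM, 17.3 ± 2.74 RPKM and 15.2 ± 1.08 RPKM in NOX4 at LS, HS7 and HS21, against 10.9 ± 1.49 RPKM, 11.7 ± 1.3 RPKM and 16.4 ± 0.48 RPKM in SS (SD, n = 5 each).

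Other genes of the pathway were read from lists chosen with earlier results of these data known. Of 39 tested genes of hexose metabolism outside the 31 members, 20 were called in outer medulla averaged over diets, 18 higher and 2 lower in NOX4, beside 30.4% of all genes, and 24 in cortex, 17 higher and 7 lower, beside 31.7%. At LS in outer medulla Slc2a5 (GLUT5, the fructose transporter) was at 2.08 ± 0.53 (SE), adjusted p = 0.0118, Mpc2 (a subunit of the mitochondrial pyruvate carrier) at 0.88 ± 0.21 (SE), adjusted p = 0.00742, Galk1 (galactokinase) at 0.67 ± 0.17 (SE), adjusted p = 0.0119 and Ldhd (D-lactate dehydrogenase) at 1.26 ± 0.33 (SE), adjusted p = 0.0144. In cortex at LS Galk1 (0.74 ± 0.11) and Bsg (basigin, which carries Slc16a1 to the membrane, 0.37 ± 0.06) were higher and Ldhd (-0.60 ± 0.12) and Slc2a12 (-0.68 ± 0.16) lower in NOX4. Slc2a5, Ldhd and Mpc2, like Khk and Tkfc, had a higher strain ratio in outer medulla than in cortex, by 1.98, 1.13 and 0.62 on the log2 scale, and that test called 8 of the 39, 7 higher and 1 lower, beside 11% of all genes.

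The pentose phosphate pathway, which branches from glucose 6-phosphate, was called for 6 of 9 genes in cortex at LS, 4 higher and 2 lower in NOX4, beside 22% of all genes, and for 3 of 9 in outer medulla, all higher, beside 14.8% of all genes. In cortex Tkt (transketolase) was at 0.51 ± 0.11 (SE), adjusted p = 0.0014. In outer medulla Taldo1 (transaldolase) was at 0.61 ± 0.18 (SE), adjusted p = 0.026, Pgls (6-phosphogluconolactonase) at 0.59 ± 0.16 (SE), adjusted p = 0.0164 and Shpk (sedoheptulokinase) at 0.92 ± 0.29 (SE), adjusted p = 0.0337. Of the regulators, 4 of 23 (17.4%) were called in cortex at LS and 4 of 24 (16.7%) in outer medulla, below and near the shares of all genes just given. Cebpa, a transcription factor of gluconeogenic genes, was higher in NOX4 in both (0.62 ± 0.16 (SE), adjusted p = 0.00584 in cortex and 0.78 ± 0.14 (SE), adjusted p = 0.000773 in outer medulla). Mlxipl, the carbohydrate response factor that drives Pklr in liver, was lower in NOX4 cortex (-0.76 ± 0.14 (SE), adjusted p = 0.000428). Hnf4a, a transcription factor of the proximal tubule, was higher in NOX4 outer medulla (1.94 ± 0.61), as were segment 3 markers. Pdk4, which restrains pyruvate oxidation, was lower there (-0.79 ± 0.27).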

How the data were processed

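RNA from snap-frozen rat kidney cortex and outer medulla was extracted with Trizol and made into poly(A) libraries, per the labels' protocols. The submitters' processing notes name HISAT2 2.0.5, StringTie 1.3.3b and featureCounts 1.5.0-p3, with no genome build. The authors deposited 1 table of raw counts per gene for 60 libraries, with gene lengths. Their log2 fold changes and p-values stand beside the counts in the deposited table and are quoted only where named. Counts carry no molecular identifiers.

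The members and lists were chosen with earlier results of these data known. The test was that of edgeR 4.0.16 under R 4.3.3 (quasi-likelihood F test, TMM, filterByExpr by group, 1 coefficient per group, 30 libraries per tissue or all 60, no covariate), adjusting p-values over 15179 genes in cortex, 15799 in outer medulla and 16326 in both. Calls are at an adjusted p under 0.05, and SE is the log2 fold change over the root of F. RPKM uses the deposited length and TMM factors over 60 libraries. Marker scores are mean log2 CPM (prior count 2). Alternatives were DESeq2 1.42.0 (its test, or its size factors within edgeR), no filter, a replicate block, single groups alone, and leaving out libraries. The script was tested on simulated data. Named with values were, per comparison, up to 6 called members with the smallest p, the highest member per step and its isozyme, and up to 4 called genes per other list; others named, such as Slc2a5, were chosen after their values were seen. Same-numbered libraries of different groups did not deviate together within a tissue (median r of -0.0029 over 150 pairs). The labels do not say whether cortex and outer medulla libraries of the same number came from the same animal. The tests across tissues treat them as separate. Promoters come from the RefSeq GRCr8 table, which held 28 members. No protein sequence was used here.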

Additional observations from a re-analysis of the deposited data

Results flagged for a closer look

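Of 372 pairs of a member and a group, 21 (5.65%) held a library flagged by Dixon's test, about the 5% that chance gives. This test sets the gap to the nearest library against the range of the group, so a small difference can be flagged. Gpi in NOX4 HS21 outer medulla replicate 3 was flagged at 227 RPKM, with the others at 240 to 244 RPKM. The flags fell in 14 libraries. SS HS7 outer medulla replicate 3 gave 4 of them: Pck1 at 706 RPKM (the others 12 to 192), G6pc at 34.2, Fbp2 at 7.5 and Sord at 185. NOX4 HS7 outer medulla replicate 2 gave 3: Pck1 at 570 RPKM (the others 48.1 to 174), G6pc at 51.5 and Slc16a1 at 19.5. These 2 libraries also had the highest scores for proximal tubule segments 1 and 2 in outer medulla, 8.14 and 7.98. They were highest there for podocyte markers too, at 4.72 and 4.55, and for distal convoluted tubule markers, at 2.775 and 3.508. The part of tissue sampling in these values was not tested.

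In the remaining outer medulla libraries the flagged values were Pkm at 212 RPKM in NOX4 LS replicate 3, Gpi at 227 in NOX4 HS21 replicate 3, Eno1 at 614 in NOX4 HS21 replicate 2, Aldoc at 3.16 in NOX4 HS21 replicate 5 and Gpi at 225 in SS HS21 replicate 5. In cortex they were Sord at 284 RPKM in NOX4 LS replicate 3, Pklr at 19.8 and Slc16a1 at 122 in NOX4 HS7 replicate 2, Aldoc at 1.01 in NOX4 HS7 replicate 1 and Tpi1 at 4.46 in NOX4 HS21 replicate 3. The SS cortex values were Aldoa at 621 RPKM in LS replicate 4, Hk2 at 4.3 and Pfkp at 5.3 in HS7 replicate 1, and Pkm at 63.1 in HS7 replicate 4.

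The strain effect differed between outer medulla and cortex, by the test of that difference, for Pklr (1.83 on the log2 scale), Tkfc (1.40), Khk (1.32) and Gpi (0.30). These 4 of 31 members are near the share of all genes, 11%. The calls for Khk and Gpi were lost without replicate 2 of every group.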

How the results depend on the processing

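Neither strain, nor diet within SS, can be told apart from library order. Depth limits low members such as Fbp2 and Aldoc, and intervals from 5 libraries are wide where proximal tubule markers vary. Counts of called members in outer medulla against cortex stayed within 25 to 28, and no scaling moved the median of all genes by over 0.1.

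The segment 3 marker score did not overlap between the strains at LS in either tissue, so strain and score cannot be told apart there. With the segment 3 marker score as a covariate, added after seeing the data, 0 members were called in cortex at LS and 4 averaged over diets, and 1 in outer medulla at LS and 1 averaged over diets. Signs then turned for Tkfc in cortex (0.069 at LS, 0.11 averaged), Pklr in cortex (0.025 averaged), and in outer medulla for Fbp1 (-0.22 at LS, -0.083 averaged), Sord (-0.10 averaged) and Akr1b1 (0.053 averaged). Without low-complexity libraries cortex had 5 calls at LS, 4 at HS21, 0 for SS HS7 against LS and 3 for SS HS21 against LS. Outer medulla then had 5 at HS7 and 8 at HS21, and the tissue by strain interaction had 14. With only the compared groups fitted, cortex had 0 calls at HS7, 4 at HS21 and 0 for SS HS7, and outer medulla had 11 at LS, 0 at HS7, 8 at HS21 and 4 for SS HS21. DESeq2 called 2 in cortex at HS21, 3 for SS HS7 in cortex, 8 for SS HS7 in outer medulla, 1 for the outer medulla salt interaction and 7 for the tissue by strain interaction. Outer medulla SS HS21 had 1 call with DESeq2 size factors and 1 with no filter. Without NOX4 HS7 cortex replicates 3 and 4, cortex HS7 had 0. Without SS HS7 replicate 3 and NOX4 HS7 replicate 2, outer medulla HS7 had 5, NOX4 HS7 against LS 1 and the tissue by strain interaction 10. With a replicate block cortex SS HS7 had 3 calls and outer medulla SS HS21 had 1. Same-numbered libraries of both tissues had a median r of 0.0221, with 4 of 30 over 0.1. A low r between different tissues cannot show whether such libraries came from the same animal. The cause of the shifts in the counts of calls was not tested. Shares of all genes under these settings are not given here, so the counts are not read as a result about the members.

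Leaving out each library in turn gave, in cortex, 8 to 10 calls at LS, 2 to 9 at HS7, 0 to 2 at HS21 and 9 to 17 averaged. Over all genes the same fits called 2617 to 3453, 1582 to 3475, 29 to 290 and 4329 to 5272. For SS salt in cortex 1 to 6 members were called at HS7 and 5 to 7 at HS21. All genes called there were 190 to 819 and 1541 to 2703. Outer medulla had 3 to 8 at LS, 1 to 9 at HS7, 0 to 1 at HS21 and 14 to 20 averaged. Over all genes these were 1229 to 2338, 367 to 3409, 28 to 834 and 4109 to 6484. For SS salt in outer medulla 0 to 7 members were called at HS7 and 1 to 2 at HS21. All genes called there were 70 to 1456 and 767 to 1505. Both salt interactions and all NOX4 salt contrasts gave 0 each time. Leaving out 1 replicate number from every group at once gave 2 to 7 for the tissue by strain interaction. That contrast then called 719 to 2110 of all genes.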
